A study of Sus scrofa domesticus with 4 samples.

Results

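The immediate-early genes FOS, FOSB, JUN, JUNB, NR4A1, NR4A2, NR4A3, EGR1 and MYC were followed in the anterior pituitary of pregnant and cyclic gilts. Array probes were taken where their transcript accession belonged to 1 of these 9 genes in the pig RefSeq annotation, and 10 of 43603 probes did so. They covered 5 genes, with 1 probe each for FOS (NM_001123113), JUN (NM_213880) and NR4A2 (NM_001190276), 4 probes for NR4A3 (NM_214247) and 3 probes for MYC (NM_001005154). FOSB, JUNB, NR4A1 and EGR1 had no matching probe and were not analysed here. The annotation gave 0 RefSeq transcripts for NR4A1, so that no probe could match it, and 1 each for FOSB, JUNB and EGR1. Only 6700 of the 43603 probes carried 1 symbol, so the array may hold probes for these genes under other identifiers. All 10 probes were well above background in 8 of 8 channels, and 0 spots were saturated. The arrays' files name no genome build, so no position is given.

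The pregnant group held 4 gilts, bred naturally and taken on days 15 to 16 of pregnancy, and the cyclic group held 4 gilts taken on the same days of the estrous cycle. All 8 were mature Large White x Polish Landrace animals of 90 to 110 kg, killed at an abattoir. Each of 4 two-colour arrays carried RNA of 1 pregnant and 1 cyclic gilt, so that an array is 1 pair of animals. By the samples' label fields pregnant RNA was labelled with Cy3 on arrays 1 and 3 and with Cy5 on arrays 2 and 4.

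Immediate-early genes are transcribed within minutes of a stimulus, without new protein synthesis, and their mRNAs are short-lived. FOS and JUN proteins pair to form the AP-1 transcription factor, the NR4A proteins are orphan nuclear receptors, and MYC is a transcription factor of growth and proliferation. In rodent pituitary cells gonadotropin-releasing hormone is known to induce FOS, JUN and EGR1 in gonadotropes, and corticotropin-releasing hormone is known to induce NR4A genes in corticotropes.

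Ratios are log2 of pregnant over cyclic, so that 1 is a doubling in the pregnant animal of the pair, and levels are normalized log2 intensities of single animals, which depend on the scaling between arrays. Between 50.4% and 60.4% of spots were well above background in the pregnant channel and between 52.6% and 66.5% in the cyclic channel. The hormone genes of the anterior lobe (LHB, FSHB, CGA, POMC, GH1, PRL and TSHB) were well above background in 8 of 8 channels. OXT, a hormone of the posterior lobe, was also above background in 8 of 8 channels, and AVP in 3 of 8. In RNA of whole tissue, fewer cells of a type and less RNA per cell cannot be told apart.

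None of the 5 genes differed between pregnant and cyclic glands beyond the spread between pairs. In limma's fit with a dye term, 0 of 5 genes passed an unadjusted p of 0.05, against 7.22% of the 18884 features tested (1363 features, 3.03% of all being higher and 4.19% lower). No feature passed after Benjamini-Hochberg adjustment over all features (0%), the smallest adjusted p being 0.135. With the dye term, SEs and p-values rest on the spread between arrays of the same dye orientation, moderated over all features. What set FOS, NR4A2 and NR4A3 apart in this description was the distance between pairs. Their ratios spanned 3.09, 3.07 and 4.11 log2 units over the 4 arrays, while the median range over all features was 0.59 and the 95th percentile 1.62. JUN and MYC spanned 1.09 and 1.15, but 2.81 and 2.18 when arrays were centred on their median in place of loess, where FOS spanned 3.03, NR4A2 3.55 and NR4A3 5.44.

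**Figure D1:**
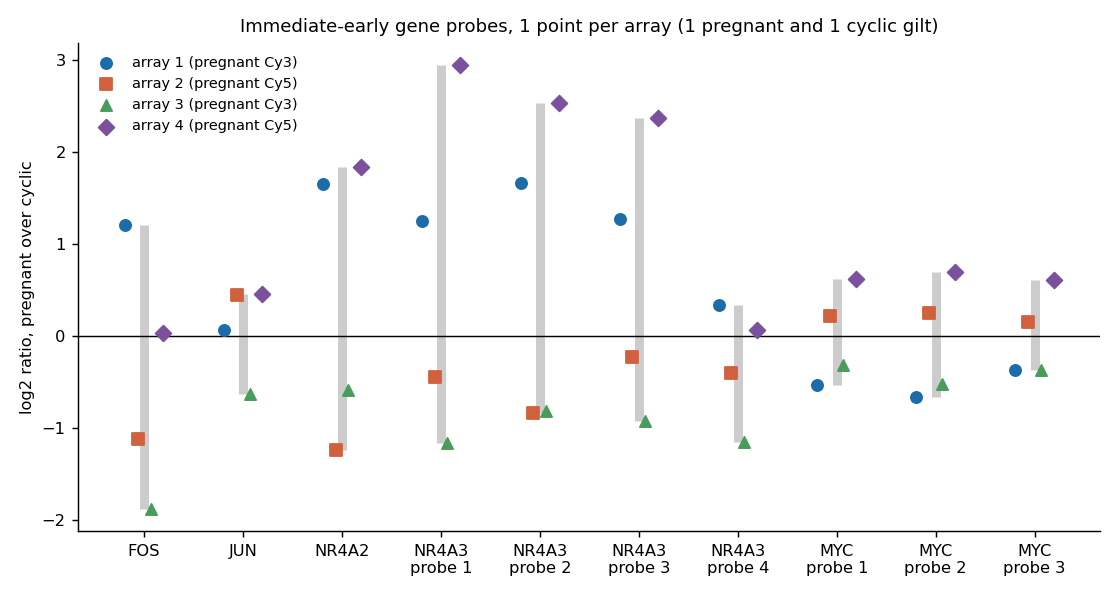
Log2 ratio of pregnant over cyclic (vertical axis) on each of the 4 arrays for the 10 probes, with 1 point for each array, a grey bar from the lowest to the highest array and a line at 0. The FOS and NR4A2 probes and all 4 NR4A3 probes lie above 0 on arrays 1 and 4 and below 0 on arrays 2 and 3, with FOS at 0.04 and the fourth NR4A3 probe at 0.07 on array 4, while no JUN or MYC value is farther from 0 than 0.70.

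FOS, the AP-1 subunit whose mRNA is induced and lost quickly, had levels of 10.03, 7.47, 7.66 and 8.35 in the pregnant gilts of arrays 1 to 4, against 8.81, 8.58, 9.54 and 8.32 in the cyclic gilts of the same arrays. The pregnant gilt of array 1 was the highest of the 8 animals and the pregnant gilts of arrays 2 and 3 were the lowest, so the cyclic levels lay inside the pregnant range. On the scanner software's own scale these were processed intensities of 1013, 110.8, 98.0 and 169.0 in pregnant gilts, against 370.0, 301.1, 490.0 and 168.0 in cyclic gilts. The 4 ratios were 1.22, -1.11, -1.88 and 0.04, and their mean was -0.43 ± 0.52 (SE, n = 4 pairs; limma, adjusted p = 0.814). The 95% interval, from -1.76 to 0.89, leaves room for a difference of more than a doubling in the cyclic direction. With the dye term kept, limma's estimate was -1.21 without array 1 and 0.34 without array 3. By the design, leaving out either of these arrays moves the estimate equally far in opposite directions. Spread in both fits comes from arrays 2 and 4 alone, moderated over all features. With background parameters estimated from all spots the FOS ratio on array 2 was -0.10 and that on array 4 was -0.013. The highest and the lowest animal differed 5.89-fold, a range wider than that of 98.9% of features.

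The JUN probe, for the partner of FOS in AP-1, was bright, with levels of 15.03, 14.71, 14.15 and 14.62 in pregnant gilts, against 14.96, 14.26, 14.77 and 14.16 in cyclic gilts. Both groups covered nearly the same span, and the 8 animals lay within 1.85-fold of each other. JUN ratios were 0.07, 0.45, -0.62 and 0.46, with a mean of 0.09 ± 0.14 (SE, n = 4 pairs; limma, adjusted p = 0.861) and a 95% interval from -0.27 to 0.45. JUN was above FOS on arrays 2, 3 and 4 and below it on array 1, where the FOS ratio was at the 99.8th percentile of all features and that of JUN at the 63.9th. On array 3 FOS was at the 0.111th percentile of features and JUN at the 3.47th.

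NR4A2 (Nurr1), a nuclear receptor best known for its role in dopamine neurons, had levels of 10.80, 8.40, 9.63 and 10.68 in pregnant gilts, against 9.14, 9.64, 10.22 and 8.84 in cyclic gilts. The pregnant gilts of arrays 1 and 4 were the highest of the 8 animals and the pregnant gilt of array 2 was the lowest. The ratios were 1.66, -1.23, -0.59 and 1.84, with a mean of 0.42 ± 0.60 (SE, n = 4 pairs; limma, adjusted p = 0.845) and a 95% interval from -1.10 to 1.94. With the dye term kept, leaving out array 1 turned limma's estimate to -0.14, leaving out array 4 to -0.35, and leaving out array 2 raised it to 1.19. On arrays 1 and 4 the ratio was at the 99.9th percentile of all features, and on arrays 2 and 3 at the 2.19th and 3.97th. The values of arrays 2 and 4 depended on the background correction, since with parameters estimated from all spots they were -0.22 and 0.28.

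NR4A3 (NOR1), another receptor of the same family, had its brightest probe at levels of 11.01, 9.85, 11.01 and 13.10 in pregnant gilts, against 9.75, 10.30, 12.17 and 10.15 in cyclic gilts. The pregnant gilt of array 4 stood highest, the cyclic gilt of array 3 came next, and the extremes of the 8 animals differed 10.2-fold. The ratios were 1.26, -0.44, -1.16 and 2.95, with a mean of 0.65 ± 0.65 (SE, n = 4 pairs; limma, adjusted p = 0.773) and a 95% interval from -1.01 to 2.31. With the dye term kept, limma's estimate was 1.50 when array 2 was left out, with its spread taken from arrays 1 and 3 alone. It stood at 0.05 with array 1 left out and at -0.20 with array 4 left out. The same change of background parameters gave ratios of -0.13 and 1.84 on arrays 2 and 4. This probe included, 22 of the 18884 features had a range as wide.

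The 4 NR4A3 probes shared their signs on each array but not their sizes. The second probe stood at 1.67, -0.83, -0.81 and 2.53 on arrays 1 to 4 and the third at 1.28, -0.23, -0.92 and 2.37, close to the first. The fourth and dimmest stood at 0.34, -0.40, -1.15 and 0.07, so that on array 4 it lacked the high ratio of the others. The means were 0.64 and 0.63 for the second and the third probe and -0.28 for the fourth, so that its mean had the opposite sign. Which transcripts of NR4A3 each probe reads was not tested. Because 3 of 4 probes repeated the ratio of 2.37 or more on array 4, that value did not rest on a single spot.

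**Figure D2:**
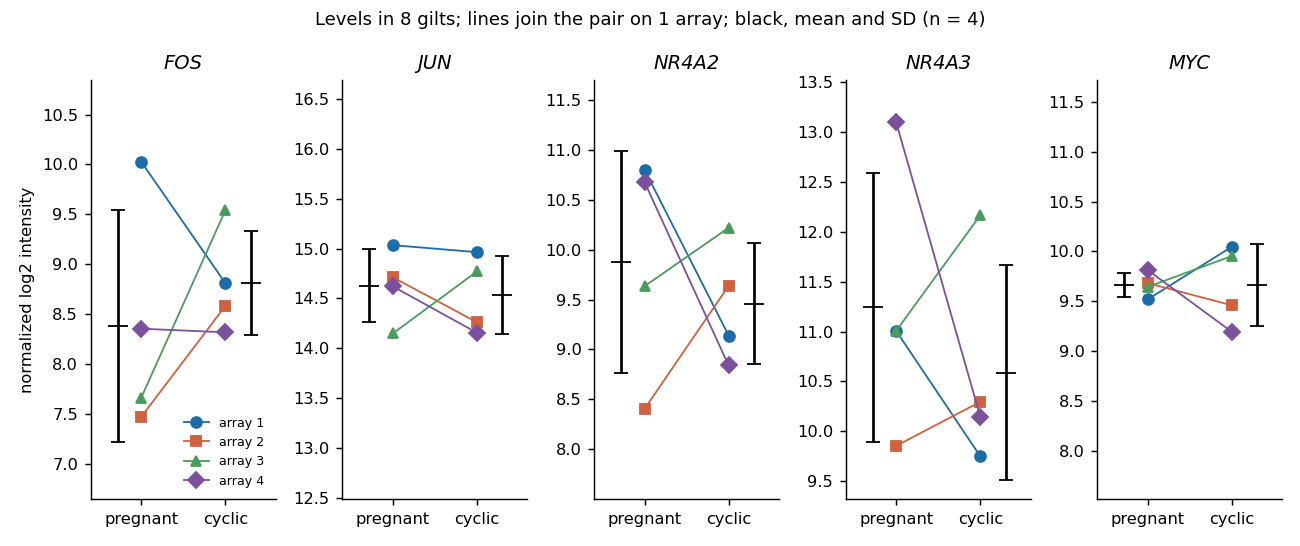
Normalized log2 intensity (vertical axis) of FOS, JUN, NR4A2, NR4A3 (brightest probe) and MYC (brightest probe) in the 4 pregnant and the 4 cyclic gilts, with 1 point an animal, lines joining the animals that shared an array, and black bars for mean and SD (n = 4); axes span the same width in every panel but start at different levels. Pregnant and cyclic animals overlap in every panel, and the widest spreads are those of FOS, NR4A2 and NR4A3, while JUN and MYC lie within 1.85-fold over the 8 animals.

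MYC had the smallest mean difference of the 5 genes. Its brightest probe had levels of 9.52, 9.68, 9.65 and 9.81 in pregnant gilts, against 10.05, 9.46, 9.95 and 9.19 in cyclic gilts, so that the pregnant animals lay inside the range of the cyclic ones. The ratios were -0.53, 0.22, -0.31 and 0.62, with a mean of 0.00 ± 0.12 (SE, n = 4 pairs; limma, adjusted p = 0.999) and a 95% interval from -0.30 to 0.30. The second probe stood at -0.66, 0.25, -0.52 and 0.70 and the third at -0.36, 0.16, -0.36 and 0.61, and the SD between the 3 probes was 0.05 to 0.15 over the arrays. The sign of MYC followed the dye, with red above green on 4 of 4 arrays for all 3 probes and a fitted dye effect of 0.42. The 3 probes read RNA of the same animals, and the share of all features with red above green on every array was not counted. JUN had a dye effect of 0.37 with red above green on 3 of 4 arrays. NR4A3 had the largest fitted dye effect of the 5 genes, 0.60, although its red channel was above green on only 2 of 4 arrays. For FOS and NR4A2 the fitted dye effects were -0.10 and -0.12. For all 3 of these genes green was above red on arrays 1 and 2 and red above green on arrays 3 and 4. The protocol text, unlike the label fields, describes 1 orientation for all arrays, under which arrays 2 and 4 would turn. The means would then be 0.10 for FOS, -0.37 for JUN, 0.12 for NR4A2, -0.60 for NR4A3 and -0.42 for MYC, and JUN and MYC would pass an unadjusted p of 0.05 in limma's fit, with group and dye not separable.

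The 8 animals overlapped between groups for all 10 probes, beside 1.89% of 18845 features whose pregnant and cyclic levels did not overlap. No member kept one sign on all 4 arrays (0 of 5), against 13.8% of features. On array 1, 4 of 5 members were above 0, on array 2 it was 2, on array 3 none and on array 4 all 5. The median member ratio was 1.22, -0.44, -0.62 and 0.62 on arrays 1 to 4. The SD over all features was 0.40, 0.50, 0.35 and 0.33 on the same arrays.

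FOS, NR4A2 and NR4A3 had the same sign as each other on 4 of 4 arrays, with FOS close to 0 on array 4. With background parameters from all spots they shared it on arrays 1 to 3, and on array 4 FOS stood at -0.013, NR4A2 at 0.28 and NR4A3 at 1.84. Over all features, 3.05% (575) had their pattern of above 0 on arrays 1 and 4 and below 0 on arrays 2 and 3, which was chosen after the values were seen. NR4A2 and NR4A3 were the closer pair, with a root mean square difference of 0.77 over the 4 arrays, against 1.13 between FOS and NR4A2 and 1.54 between FOS and NR4A3. JUN and MYC differed by 0.36, with ranges narrower than those of the other 3 genes.

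**Figure D3:**
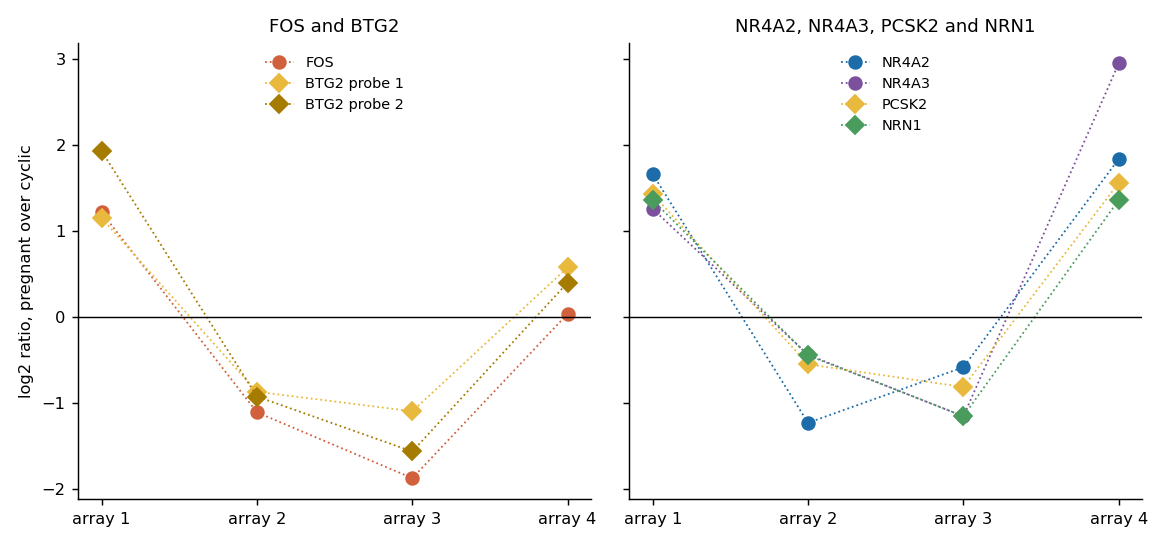
Log2 ratio of pregnant over cyclic (vertical axis) on arrays 1 to 4 (horizontal axis), with dotted lines joining the 4 values of each probe, for FOS with both BTG2 probes in one panel and for NR4A2, NR4A3, PCSK2 and NRN1 in the other. BTG2, PCSK2 and NRN1 run above 0 on arrays 1 and 4 and below 0 on arrays 2 and 3, as FOS, NR4A2 and NR4A3 do.

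The width of the FOS and NR4A ratios was also uncommon among features of like brightness. Within 0.5 log2 units of its mean intensity, FOS had a wider range than 99.3% of 2680 features, NR4A2 than 99.6% of 2037 and the brightest NR4A3 probe than 99.9% of 1567. JUN exceeded 76.0% of 296 such features. Probes printed 5 times on each array (50 probes) had a pooled SD between spots of 0.11 to 0.14 in the ratio, which covers spot noise and not the spread between animals. The SDs between arrays were 1.35 for FOS, 1.56 for NR4A2, 1.84 for NR4A3, 0.51 for JUN and 0.52 for MYC, against a median of 0.27 over all features. Limma's SEs for JUN and MYC, 0.14 and 0.12, leave out spread that followed the dye. Without the dye term these SEs were 0.20 and 0.20.

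**Figure D4:**
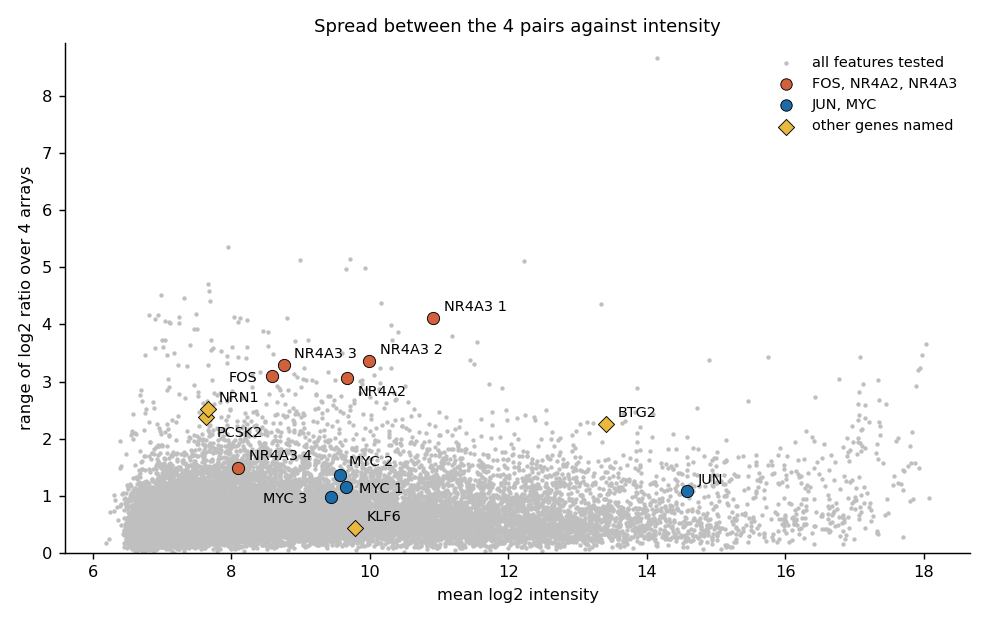
Range of the log2 ratio over the 4 arrays (vertical axis) against mean log2 intensity (horizontal axis) for every feature tested (grey) and for the member probes and named genes (coloured). FOS, NR4A2 and NR4A3 probes 1 to 3 lie above 3, where few features of their brightness lie, the fourth NR4A3 probe is at 1.49, and JUN and the MYC probes are between 0.98 and 1.36.

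Among named genes, the 1 most like FOS over the 4 arrays was BTG2, an antiproliferative gene that is itself induced early by growth factors and DNA damage, at a root mean square difference of 0.49. BTG2 ratios were 1.15, -0.87, -1.10 and 0.58, and its second probe stood at 1.93, -0.93, -1.57 and 0.40. BTG2 levels were 15.18, 12.20, 12.75 and 13.53 in pregnant gilts, against 14.03, 13.07, 13.85 and 12.95 in cyclic gilts, so that the pregnant gilt of array 1 was again the highest. The next closest to FOS were SLC22A4, an organic cation transporter, at 0.68, GHRHR, the growth hormone-releasing hormone receptor, at 0.68, SCNN1G, an epithelial sodium channel subunit, at 0.69, and TMOD4, a tropomodulin, at 0.71. On array 1, where FOS stood at 1.22, these 4 lay between -0.05 and 0.31. On array 4, where FOS stood at 0.04, SLC22A4 at -0.21, SCNN1G at -0.18 and TMOD4 at -0.02 were nearer to it than BTG2, and GHRHR was at -0.74.

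The likeness to the other members was computed after their values were seen. Closest to NR4A2 were PCSK2, a prohormone convertase that cuts POMC in the intermediate lobe, at 0.40 (1.43, -0.55, -0.82 and 1.56 on arrays 1 to 4), and NRN1, the neuritin gene, at 0.56 (1.36, -0.45, -1.16 and 1.36). PCSK2 was the closest of all features to NR4A2 and also to NR4A3, and both the PCSK2 and NRN1 probes were above background in 7 of 8 channels. PCSK2 levels were 8.01, 7.08, 7.96 and 8.30 in pregnant gilts, against 6.58, 7.63, 8.78 and 6.74 in cyclic gilts. Of 4 genes listed as markers of the posterior and intermediate lobe, 3 had a matched probe and 2 were tested. Their mean level was 9.84 to 10.56 in pregnant gilts and 9.46 to 10.96 in cyclic gilts. OXT did not have the PCSK2 pattern, standing at -0.67, -0.62, 0.02 and -0.16. The part of such tissue in the NR4A ratios was not tested. Closest to JUN was EEF1A1, a translation elongation factor, at 0.12 and to MYC HNRNPA1, an RNA-binding protein, at 0.08. EEF1A1 stood at -0.12, 0.49, -0.72 and 0.38 and HNRNPA1 at -0.54, 0.28, -0.29 and 0.47. Both had red above green on every array, as MYC had. The part of the dye in this likeness was not tested.

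Other early-response genes were read from lists, in which 49 of 145 genes had a tested probe. An unadjusted p of 0.05 was passed by 3 higher and 3 lower genes (12.2%, against 7.22% of all features), and none passed adjustment. The median estimate over the 49 was -0.01, against -0.02 over all features, and the median range was 0.82, against 0.59. Features of like brightness were not set beside the lists, so the ranges may differ with brightness.

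Of the immediate-early transcription factors beside the members, 9 of 33 were tested and 1 was higher at the unadjusted threshold, KLF6, a zinc finger factor, at 0.81 ± 0.12 (SE, n = 4 pairs; limma, adjusted p = 0.647). KLF6 stood at 1.07, 0.86, 0.63 and 0.68, above 0 on 4 of 4 arrays, and its 3 dimmer probes lay between -0.08 and 0.94. ID1, an inhibitor of helix-loop-helix factors, stood at 0.57, 0.13, 0.15 and -0.29 and ID2, of the same family, at 0.35, 0.26, -0.07 and 0.23. BTG1, the paralog of BTG2, stood at -0.62, 0.77, -0.30 and 0.17, opposite in sign to BTG2 on arrays 1 and 2. BTG1 had red above green on every array.

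Of the signalling and secreted early-response genes, 13 of 33 were tested, with 2 higher and 1 lower at the unadjusted threshold. NFKBIA, the inhibitor of NF-kappa-B, was higher at 0.35 ± 0.10 by its brightest probe. The estimate of its second probe had the opposite sign, with values of 0.16, -0.50, -0.003 and 0.02 on arrays 1 to 4. GADD45A, a growth arrest and DNA damage gene, was higher at 0.44 ± 0.17 and stood at 0.39, 1.09, -0.40 and 0.69. CTGF (CCN2), a matricellular protein, was lower in the fit at -0.34 ± 0.12, with values of -1.12, 0.11, -0.64 and 0.26. The sign of CTGF followed the dye, with red above green on every array. In limma's fit each of these 3 had an adjusted p of 0.647 (SE over n = 4 pairs). PTGS2, the inducible prostaglandin synthase, shared the high value of FOS on array 1, with 1.72 there and -0.32, 0.18 and 0.27 on arrays 2 to 4, and its second probe stood at 1.97, -0.51, 0.36 and 0.25. THBS1, a thrombospondin, stood at -1.25, 0.02, -0.66 and 0.60, also with red above green on every array.

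**Figure D5:**
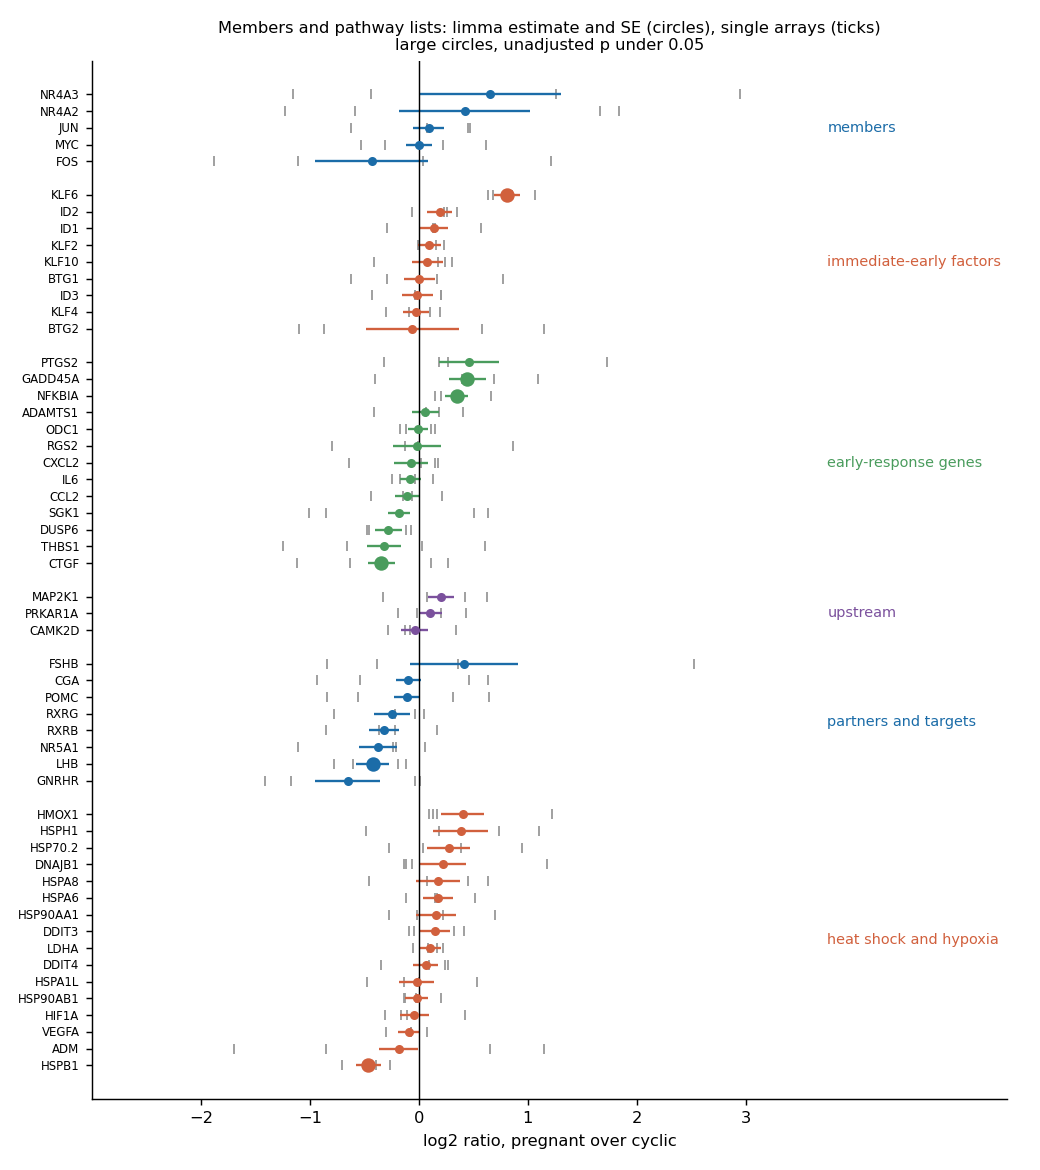
Mean log2 ratio of pregnant over cyclic (horizontal axis) for each member and each tested gene of the early-response, upstream, target and stress lists, with circles for limma's estimate, bars for its SE, ticks for single arrays and large circles at an unadjusted p under 0.05. KLF6 at 0.81 has the highest estimate and keeps all 4 arrays above 0, while the ratios of FSHB and ADM spread over 3.37 and 2.85 log2 units. The signs of ADM follow the dye, with red above green on every array.

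Of the kinases and factors upstream of these genes 3 of 30 were tested and 0 passed an unadjusted p of 0.05 in limma's fit. MAP2K1, which activates ERK, stood at 0.20 ± 0.12, PRKAR1A, the regulatory subunit of protein kinase A, at 0.11 ± 0.11 and CAMK2D, a calcium-dependent kinase, at -0.04 ± 0.12 (SE, n = 4 pairs each). The 2 other tested CAMK2D probes had estimates of the opposite sign, and the other MAP2K1 and PRKAR1A probes of the same sign. None of 11 partners of MYC had a probe matched through the RefSeq annotation.

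Of the partners and pituitary targets of these factors 8 of 15 were tested and 1 was lower at the unadjusted threshold, LHB, the luteinizing hormone beta subunit and a known target of EGR1 in rodents, at -0.42 ± 0.15 (limma, adjusted p = 0.647). LHB stood at -0.78, -0.60, -0.19 and -0.12, and its second probe was above 0 on array 3. GNRHR, the receptor of gonadotropin-releasing hormone, stood at -1.18, -1.41, 0.01 and -0.03, and RXRB, a retinoid X receptor, at 0.17, -0.85, -0.22 and -0.37. FSHB, the follicle-stimulating hormone beta subunit, had a ratio of 2.53 on array 3 and of -0.38, 0.35 and -0.84 on arrays 1, 2 and 4. CGA, the shared alpha subunit, stood at -0.54, 0.63, -0.94 and 0.46, a pattern of signs like that of MYC, and POMC at -0.55, 0.64, -0.84 and 0.31. CGA and POMC had red above green on every array.

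Heat shock and hypoxia genes, which mark stress of tissue or animal, were tested for 16 of 23 genes, and HSPB1, a small heat shock protein, was lower at -0.46 ± 0.12 (limma, adjusted p = 0.647). The list's median was 0.24, 0.27, -0.12 and -0.11 on arrays 1 to 4, and its mean level was 11.69 to 12.00 in pregnant gilts and 11.63 to 11.86 in cyclic gilts. DNAJB1, a heat shock cochaperone, stood at 1.18 on array 1 and between -0.13 and -0.06 on the other arrays. The estimate of its 1 other tested probe had the opposite sign. HSPH1, a heat shock protein of the HSP110 family, stood at 0.73, 1.10, -0.48 and 0.18, and ADM, adrenomedullin, at -1.70, 1.15, -0.85 and 0.66. ADM had red above green on every array. RNA integrity numbers were 7.5 to 10 over the animals and were not given for each, so their relation to the ratios was not tested.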

How the data were processed

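RNA of 4 pregnant and 4 cyclic gilts was measured on 4 arrays of 1 slide, scanned in 1 run, so no batch was fitted. The deposited scanner files give, per the file headers, median spot and local background intensity for both channels, extracted with Feature Extraction 10.7.3.1. The deposited files also hold processed intensities, background-subtracted and dye-normalized by that software, and flags (other) marking outlier, saturated and well-above-background spots. The authors' log2 value table equalled log2 of the processed ratios, pregnant over cyclic, for 43553 of 43553 once-printed probes on each array within 0.001. Per the file headers the software's log10 ratio is red over green.

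Background was corrected by normexp (offset 50) on median intensities, with parameters estimated without marked outlier spots. The fixed design named no statistic for the foreground, and the files hold medians. Ratios were normalized within arrays by loess (span 0.3, 1417 control spots at weight 0), and levels additionally between arrays by Aquantile. A probe was kept if 4 or more of the 8 channels were flagged well above background, which left 25193 of 43603. The brightest probe stood for a gene, leaving 18884 features (2410 with a symbol). limma 3.58.1 in R 4.3.3 (with data.table, version 1.17.8, and jsonlite 2.0.0) fitted group and dye, with Benjamini-Hochberg adjustment over all features, a threshold of 0.05 and 95% intervals. An array is 1 pair of animals. With the dye term, SEs and p-values measure the spread between pairs of the same dye orientation, moderated over all features. The number of pairs, 4, limits the precision.

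Genes were named through RefSeq accessions, 6700 probes carrying 1 symbol. Named beside the members were, from each list, the 3 genes of lowest p, the 2 of widest range and those at an unadjusted p under 0.05, and the 5 named genes most like FOS. DNAJB1, POMC, OXT, PCSK2, NRN1, EEF1A1 and HNRNPA1 were chosen after their values were seen. The members and lists were chosen with earlier results of these data known. Alternatives covered background correction, centring, filters, dye term and orientation, probe averaging, separate channels, the authors' table and leaving out each array.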

Additional observations from a re-analysis of the deposited data

Results flagged for a closer look

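HMOX1, the inducible heme oxygenase, had a ratio of 1.22 on array 2, far from the other 3 arrays, which lay between 0.09 and 0.16. It was the only one of 56 groups of 4 values (members and list genes) in which 1 sample stood apart by Dixon's test, and chance gives about 1 in 20. These values are of the brightest HMOX1 probe. Of the 2 other tested HMOX1 probes, 1 had an estimate of the same sign and the other did not.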

How the results depend on the processing

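The number of features at an adjusted p under 0.05 was 0 and became 2 with an offset of 10 and 3 with separate channels, and it was 0 under the other 9 alternatives and without each array. The number at an unadjusted p under 0.05 was 1363 of 18884 and became 2345 of 35866 without the filter on dim probes, 2500 with separate channels and 618 to 2184 when single arrays were left out. Of the members 0 passed that p, and 1 did with background parameters from all spots (MYC, -0.17), 2 with a single dye orientation (JUN and MYC), and 0 to 1 when an array was left out (FOS without array 1, NR4A3 without array 2). With a single orientation FOS stood at 0.10, JUN at -0.37, NR4A3 at -0.60 and MYC at -0.42, all of opposite sign. MYC, whose mean was 0.00, turned to -0.080 under median centring and -0.014 as the mean of all probes. With the dye term kept, leaving out single arrays gave estimates of -1.21 to 0.34 for FOS, -0.082 to 0.26 for JUN, -0.35 to 1.19 for NR4A2, -0.20 to 1.50 for NR4A3 and -0.10 to 0.10 for MYC. Such fits leave 1 array alone in its dye orientation. Their SEs and p-values then rest on the other orientation's arrays only, so the counts without single arrays carry little weight. The range between arrays stayed within 2.84 to 3.77 for FOS, 2.03 to 3.55 for NR4A2 and 2.99 to 5.44 for NR4A3 over 9 alternatives. Neither filter setting could change these ranges, nor probe averaging those of FOS and NR4A2. The authors' table repeats the processed signals. For JUN and MYC the range was 2.81 and 2.18 under median centring. For MYC it was 0.54 with parameters from all spots and 0.40 with a single orientation. The cause was not tested. All member probes were above background in 8 of 8 channels, and the FOS, NR4A2 and NR4A3 ratios on arrays 2 and 4 still moved with the background parameters.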
